A study of Mus musculus with 6 samples.

Results

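Aminoacyl-tRNA synthetases, the enzymes that attach each amino acid to its tRNA, were compared between 3T3-L1 adipocytes kept in leukemia cell conditioned media (LCM) and control adipocytes, with the cytosolic and the mitochondrial enzymes set side by side. The list held 37 gene symbols. A symbol that ends in ars2 was placed in the mitochondrial set (16 genes), and all others in the cytosolic set (20 genes) except Tarsl2, which belongs to neither. A level was available for 32 of the 37, made up of 16 cytosolic genes, 15 mitochondrial genes and Tarsl2, out of 14860 genes tested. Of the other 5, Aars shared its transcript with other genes, and Dars, Eprs, Sars and Cars2 were not found by symbol. Mars was matched through its current symbol, Mars1.

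3T3-L1 is a mouse pre-adipocyte line, and the cells had been taken through an adipogenic cocktail for 7 days. The 3 LCM cultures were exposed for 24 hours and then compared with 3 control cultures, each hybridized to its own Affymetrix array and described as a biological replicate. According to the labels, LCM came from 8093 cells, a mouse acute lymphoblastic leukemia line, whose medium (RPMI1640 with IL-3, BME and 10% FBS) was collected after 48 hours of growth. The methods instead describe BV173, a human leukemia line, as the source, also in RPMI1640 with 10% FBS. For the general culture of 3T3-L1 cells they name DMEM. The methods name regular media for the control cultures. The labels list 10% FBS for the control samples as well, and no source used here gives the rest of the composition of these control media. Whether the base medium differed between the groups, and whether IL-3 and BME were in the LCM cultures alone, is not known. Neither are the amino acids and glucose left in LCM after 48 hours of leukemia cell growth, and the part of these differences in the results was not tested. All values below are log2 expression values made by the authors with RMA, and a difference of 1 is a doubling.

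Each synthetase recognizes an amino acid and the tRNAs that carry it. The cytosolic enzymes serve the ribosomes that translate nuclear genes, and a separate set of nuclear genes encodes the enzymes that are imported into mitochondria to serve the few proteins made there. The enzymes fall into 2 unrelated structural classes, I and II. Several cytosolic enzymes are bound together in a multisynthetase complex, held by the scaffold proteins Aimp1, Aimp2 and Eef1e1. Many cytosolic synthetase genes are known targets of ATF4, the transcription factor of the amino acid response, which binds C/EBP-ATF response elements (CARE) together with C/EBP proteins.

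The control arrays were more spread than the LCM arrays. Control replicate 2 correlated at 0.980 and 0.984 with control replicates 1 and 3, which correlated at 0.987 with each other, and correlations among the LCM arrays were 0.990 to 0.994. With the LCM arrays, control replicate 2 correlated at 0.979 to 0.984, replicate 1 at 0.981 to 0.986 and replicate 3 at 0.987 to 0.989. Control replicate 2 was the lowest control array for 14 of 16 cytosolic and 8 of 15 mitochondrial synthetases, against 47.3% of all genes. Values without this array are given beside the results that it moved most. Adipocyte markers were abundant in all cultures and lower in LCM, with the summed level of the 6 measured markers (log2 of the sum of linear values) at 14.94 to 15.05 in LCM and 15.36 to 15.39 in control cultures. Adipoq and Cidec fell, by 0.59 and 0.45 (limma, adjusted p = 0.017 and 0.0309), and both also passed with control replicate 2 left out but with no other array left out, where the adjusted p reached 0.0875 and 0.134. Of 6 pre-B leukemia cell markers, Cd79a, Cd79b and Ptprc were measured and none passed by limma (0 at an unadjusted p under 0.05), with a summed level of 7.31 to 7.67 in LCM and 7.19 to 7.69 in control cultures. The summed level of the 4 measured pre-adipocyte markers was 12.59 to 12.82 in LCM and 12.73 to 12.86 in control cultures, and none of them passed by limma (2 lower and 0 higher at an unadjusted p under 0.05). Of 4 macrophage markers only Cd68 rose, by 0.44 (limma, adjusted p = 0.0446). Its adjusted p by limma was up to 0.181 with another array than control replicate 2 or 3 left out. Adgre1, Csf1r and Cd14 did not pass, with log2 changes of -0.057, -0.012 and 0.075 (limma, adjusted p 0.72, 0.957 and 0.819). The 4 together had a summed level of 8.78 to 8.86 in LCM and 8.52 to 8.74 in control cultures. Cd68 was the most abundant of the 4 and weighed most in this sum. The part of the adipocyte and macrophage markers in the synthetase results was not tested. In bulk cultures, fewer cells of a type and less RNA per cell cannot be told apart.

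More cytosolic than mitochondrial synthetases were higher in LCM than in control adipocytes. In the cytosolic set 5 genes, Cars, Iars, Lars, Nars and Wars, rose at an adjusted p under 0.05 (limma, Benjamini-Hochberg over all genes), 0 fell and 11 of 16 did not pass. Of all genes tested, 2.29% rose and 1.97% fell by the same rule (341 and 292 genes, or 232 and 408 after median centring of the arrays). In the mitochondrial set only Nars2 rose, 0 fell and 14 of 15 did not pass. At an unadjusted p under 0.05, 9 cytosolic synthetases were higher and 0 lower, and 3 mitochondrial ones were higher and 2 lower, whereas 9.25% of all genes were higher and 10.3% lower. The fitted change was positive for 15 of 16 cytosolic genes (93.8%) and 7 of 15 mitochondrial genes (46.7%), against 42.5% of all genes. The sets also differed in mean level, at percentiles 67.9 to 98.3 of all genes for the cytosolic and 44.7 to 80.8 for the mitochondrial genes. The shares of all genes are not matched for level, and the part of level in the difference between the sets was not tested.

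The median log2 fold change, LCM over control, was 0.41 over the cytosolic set, with a range of -0.01 to 0.73, and -0.01 over the mitochondrial set, with a range of -0.26 to 0.40. The median of all genes was -0.03. Taken per array and relative to each gene's control mean, the cytosolic median was 0.40, 0.37 and 0.47 in LCM replicates 1, 2 and 3, against 0.08, -0.12 and 0.04 in control replicates 1, 2 and 3. All 3 LCM arrays lay above all 3 control arrays. For the mitochondrial set the same median was -0.08, -0.01 and 0.02 in the LCM arrays, against 0.05, -0.07 and 0.02 in the control arrays, and the groups overlapped. Without control replicate 2 the cytosolic median was 0.27 and the mitochondrial median -0.08. In that fit 6 cytosolic genes rose, and 1 mitochondrial gene rose and 1 fell. Of all 14860 genes, 680 rose and 652 fell in the same fit, against 341 and 292 with all arrays.

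**Figure D1:**
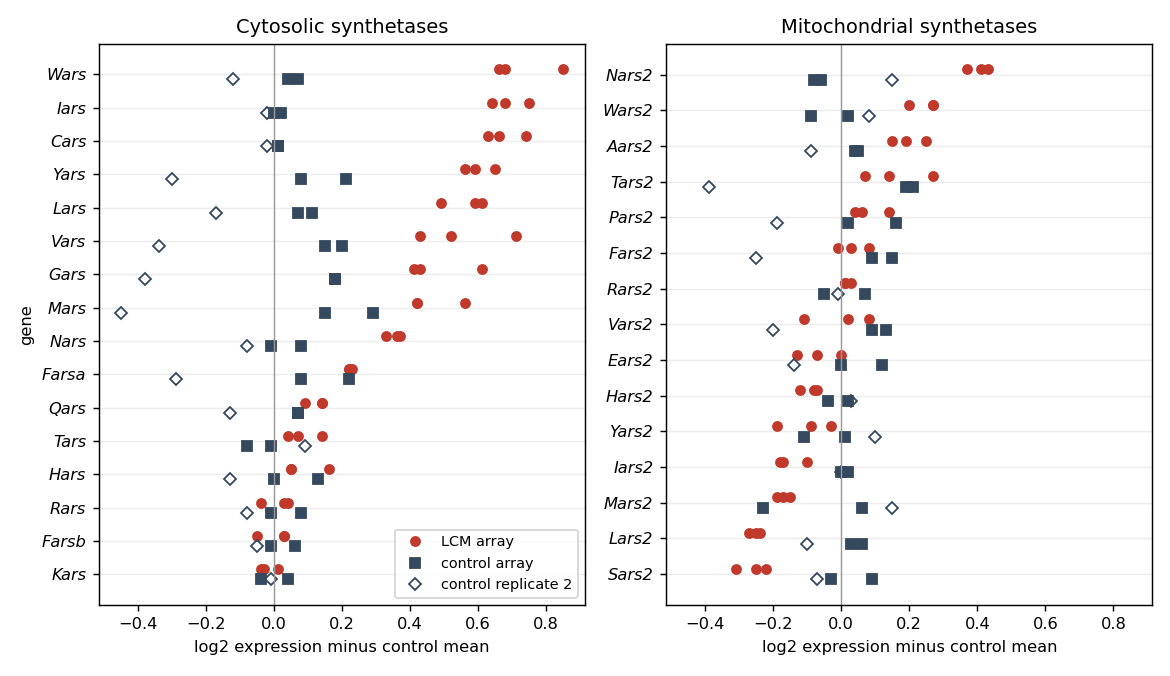
Log2 expression of each measured synthetase in each array, minus that gene's mean over the 3 control arrays (x axis, log2 units), with genes down the y axis in order of their change, cytosolic genes in one panel and mitochondrial genes in the other. Red points are LCM arrays, filled squares control arrays, and open diamonds control replicate 2. The LCM points of 11 of 16 cytosolic genes lie right of all control points, and those of 3 of 15 mitochondrial genes do.

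Promoter sequences are shown for the members whose promoters hold the letters of the CARE core. The RefSeq promoter table (GRCm38.p6), which holds 250 bases before to 50 bases after each gene's annotated start, had entries for 13 of the 20 listed cytosolic genes and 14 of the 16 mitochondrial genes. The core of the CARE, TGATGNAA on either strand, was found for 5 of the 13 cytosolic genes (38.5%), for 0 of the 14 mitochondrial genes and for 4.51% of 27025 genes. The stricter core TGATGCAA was found for 4 of the 13 (30.8%), 0 of the 14 and 1.03% of the genes. Below are the matches of 4 measured genes in the genes' own strand, 5′ to 3′, with the 8 bases of the match in capitals and 10 bases on each side. A match read on the opposite strand appears as its reverse complement.
Iars: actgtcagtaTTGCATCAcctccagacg
Yars: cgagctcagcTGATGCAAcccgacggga
Gars: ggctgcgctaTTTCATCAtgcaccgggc
Tars: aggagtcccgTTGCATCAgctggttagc
The Iars window is chr13:49682127-49682154 on the plus strand, and its match begins 7 bases after the annotated start. The Yars window (chr4:129189896-129189923, plus strand) has its match 3 bases after the start. The Gars window (chr6:55037961-55037988, plus strand) has it at position -30, counted from 0 at the start, and the Tars window (chr15:11399656-11399683, minus strand) at position -15. The NRF1 core, CGCNTGCG on either strand, the site of nuclear respiratory factor 1, was found for 6 of the 13 cytosolic genes (46.2%) and 4 of the 14 mitochondrial genes (28.6%), against 9.22% of all genes. A match describes these letters within this window and does not show that a factor was bound there. Of the 5 cytosolic genes that rose, only Iars had an entry in the promoter table.

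Cars, cysteinyl-tRNA synthetase, was at 10.12, 10.09 and 10.20 in the LCM arrays and 9.47, 9.44 and 9.47 in the control arrays. The groups were 0.61 apart at their nearest arrays. Cars rose 1.60-fold (95% interval 1.43 to 1.79) with a log2 fold change of 0.68 ± 0.07 (SE; limma, adjusted p = 0.00679), and it passed with each of the 6 arrays left out in turn.

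Iars, isoleucyl-tRNA synthetase of the multisynthetase complex and the first promoter printed above, was at 11.44, 11.48 and 11.55 in the LCM arrays, against 10.80, 10.78 and 10.82 in the control arrays. Every LCM array was above every control array, and the control arrays were within 0.04 of each other. The log2 fold change was 0.69 ± 0.07, a 1.61-fold rise (95% interval 1.44 to 1.81, adjusted p = 0.00665 by limma), which also passed with each array left out.

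Wars, tryptophanyl-tRNA synthetase, which interferon is also known to induce, had the largest fitted change among the measured synthetases. It was at 10.53, 10.55 and 10.72 in the LCM arrays and at 9.91, 9.75 and 9.94 in the control arrays, with no overlap. The rise was 1.66-fold (95% interval 1.44 to 1.92), or 0.73 ± 0.09 on the log2 scale (SE; limma, adjusted p = 0.00973). The adjusted p was 0.0556 without LCM replicate 2 and 0.0585 without LCM replicate 3, and under 0.05 without any of the other 4 arrays.

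Lars and Nars also rose, with calls that rested on the array left out. Lars, leucyl-tRNA synthetase and a complex member, was at 10.71, 10.61 and 10.73 in the LCM arrays and at 10.23, 9.95 and 10.19 in the control arrays. Its rise was 1.48-fold (95% interval 1.27 to 1.72), with a log2 fold change of 0.56 ± 0.09 (SE, adjusted p = 0.0227 by limma). Nars, asparaginyl-tRNA synthetase, was at 12.06, 12.02 and 12.05 in the LCM arrays and at 11.77, 11.61 and 11.68 in the control arrays. The LCM arrays were within 0.04 of each other and above all control arrays, and the rise was 1.28-fold (95% interval 1.14 to 1.44), with a log2 fold change of 0.36 ± 0.07 (SE, adjusted p = 0.0419 by limma). With 1 array left out at a time, both genes passed only without control replicate 2 (adjusted p 0.0141 for Lars and 0.032 for Nars), and the adjusted p reached 0.114 and 0.168 without another array. Nars also lost its call under 5 other settings, besides the methods' t-test, paired, under which 0 genes passed, with adjusted p-values of 0.0565 to 0.11 in limma fits and 0.0671 in the methods' t-test, unpaired, and Lars under 2 of these (0.0643 and 0.0894).

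Another 4 cytosolic genes had fitted changes above that of Nars but did not pass. Yars, tyrosyl-tRNA synthetase, was at 11.06, 11.03 and 11.12 in the LCM arrays and at 10.55, 10.17 and 10.68 in the control arrays. The groups did not overlap and the log2 fold change was 0.60 ± 0.13 (SE), at an adjusted p of 0.0519 by limma. Vars (valyl), Gars (glycyl) and Mars (methionyl-tRNA synthetase) had log2 fold changes of 0.55 ± 0.15, 0.49 ± 0.16 and 0.47 ± 0.18 (SE), with adjusted p-values of 0.102, 0.145 and 0.214 by limma. In all 4 genes every LCM array was above every control array, and control replicate 2 was 0.45 to 0.67 below the mean of the other controls. Without that array the log2 fold changes were 0.45 for Yars, 0.38 for Vars, 0.30 for Gars and 0.25 for Mars, and Yars passed (limma, adjusted p = 0.0186) while Vars, Gars and Mars did not (adjusted p 0.0607, 0.0715 and 0.114). Yars and Gars are among the genes with a CARE match printed above.

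The other 7 cytosolic genes had log2 fold changes of -0.01 to 0.22, below the range of 0.36 to 0.73 of the 9 described so far. Farsa, the catalytic subunit of phenylalanyl-tRNA synthetase, had 0.22 and Farsb, its other subunit, 0.00 (limma, adjusted p 0.401 and 0.982), and both proteins form a single enzyme. Without control replicate 2 these were 0.07 and -0.02. Qars (glutaminyl), Tars (threonyl) and Hars (histidyl) had 0.12, 0.09 and 0.09, or 0.05, 0.13 and 0.02 without that array. Tars held a strict CARE match like Iars and Yars, and its log2 fold change was 0.09 ± 0.08 (SE; limma, adjusted p = 0.589). For Rars (arginyl) the 95% interval of the fold change ran from 0.89 to 1.14. Kars, lysyl-tRNA synthetase, was at 10.46, 10.41 and 10.42 in the LCM arrays and at 10.49, 10.44 and 10.41 in the control arrays, with overlap and an interval of 0.89 to 1.10. A change as large as that of Cars lies outside these intervals of Rars and Kars.

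Every LCM array was above every control array for 11 of the 16 cytosolic genes and below for 0, against 12.8% and 14.7% of all genes. In the mitochondrial set this held for 3 genes above and 4 below, out of 15.

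**Figure D2:**
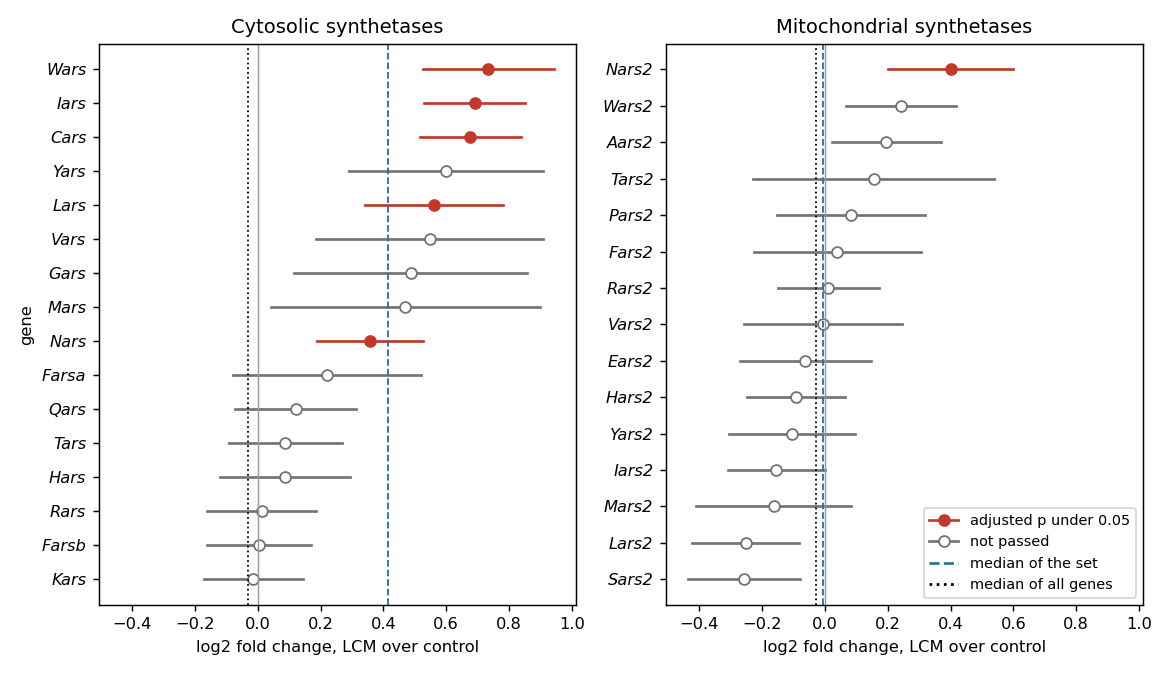
Log2 fold change, LCM over control (x axis), of each measured synthetase with its 95% interval from limma, for cytosolic genes in one panel and mitochondrial genes in the other. Filled red points passed at an adjusted p under 0.05. The dashed line is the median of the set (0.41 for cytosolic, -0.01 for mitochondrial) and the dotted line the median of all genes (-0.03).

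Among the mitochondrial genes Nars2, the asparaginyl enzyme, was at 9.47, 9.53 and 9.51 in the LCM arrays and at 9.04, 9.25 and 9.02 in the control arrays. Control replicate 2 was the highest of the controls here, and the groups did not overlap. Nars2 rose 1.32-fold (95% interval 1.15 to 1.52), with a log2 fold change of 0.40 ± 0.09 (SE, adjusted p = 0.0479 by limma). The adjusted p was 0.0113 without control replicate 2 and 0.115 to 0.198 without each of the other 5 arrays. It was 0.0548 to 0.107 when the arrays were normalized or centred again, the replicate number was a block or all transcripts were tested (limma).

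Wars2 (tryptophanyl) and Aars2 (alanyl) had the next largest positive changes and did not pass. Wars2 was at 8.64, 8.57 and 8.64 in the LCM arrays and at 8.39, 8.45 and 8.28 in the control arrays, a log2 difference of 0.24 (limma, adjusted p = 0.13). Aars2 was at 7.93, 7.97 and 8.03 in the LCM arrays and at 7.83, 7.69 and 7.82 in the control arrays, a log2 difference of 0.20 (limma, adjusted p = 0.205). The LCM arrays lay above the control arrays by 0.12 in Wars2 and by 0.10 in Aars2 at the nearest arrays. Tars2 (threonyl) was at 9.26, 9.33 and 9.46 in the LCM arrays and at 9.38, 8.80 and 9.40 in the control arrays. Control replicate 2 was the low one, and the log2 difference was 0.16 with it and -0.04 without it.

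At the other end, Sars2, Lars2, Mars2 and Iars2 had negative fitted changes, and none of them passed by limma (Sars2 and Lars2 were under an unadjusted p of 0.05). Sars2, the mitochondrial seryl enzyme, was at 7.19, 7.28 and 7.25 in the LCM arrays and at 7.47, 7.43 and 7.59 in the control arrays (log2 fold change -0.26 ± 0.08 SE, adjusted p = 0.113 by limma). Lars2, the leucyl enzyme, was at 8.31, 8.34 and 8.33 in the LCM arrays and at 8.64, 8.48 and 8.61 in the control arrays (-0.25 ± 0.07 SE, adjusted p = 0.11 by limma). Without control replicate 2 the log2 fold change of Lars2 was -0.30 and it passed (limma, adjusted p = 0.0323). Iars2, the isoleucyl enzyme, was at 9.82, 9.74 and 9.75 in the LCM arrays and at 9.92, 9.92 and 9.94 in the control arrays (log2 fold change -0.16; limma, adjusted p = 0.256). In Sars2, Lars2 and Iars2 every LCM array was below every control array. Mars2, the methionyl enzyme, was at 7.95, 7.91 and 7.93 in the LCM arrays and at 8.16, 8.25 and 7.87 in the control arrays, which overlap (log2 fold change -0.16; limma, adjusted p = 0.451). The remaining mitochondrial genes (Pars2, Fars2, Rars2, Vars2, Ears2, Hars2 and Yars2) had log2 fold changes between -0.11 and 0.08, and between -0.13 and 0.01 without control replicate 2. Tarsl2, a threonyl-tRNA synthetase that was placed in neither set, had 0.10 (limma, adjusted p = 0.508).

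Cytosolic and mitochondrial genes for the same amino acid were then compared within each array. For 12 pairs both genes were measured, with Fars2 set against both Farsa and Farsb. The value tested was the change of the cytosolic gene minus that of its mitochondrial counterpart, so that no gene's level was set against another's. The cytosolic change was the larger in 9 of 12 pairs, with a median difference of 0.34. The isoleucyl pair stood at 0.75, 0.86 and 0.93 in the LCM arrays relative to its control mean, against 0.01, -0.02 and 0.01 in the control arrays, a difference of 0.85 ± 0.05 (SE, n = 3 per group; exact permutation test, two-sided p = 0.1). The leucyl pair was at 0.86, 0.73 and 0.85 in the LCM arrays and at 0.04, -0.08 and 0.04 in the control arrays, a difference of 0.82 ± 0.06 (SE; exact p = 0.1). In both pairs the cytosolic change was positive and the mitochondrial change negative, and the difference stayed between 0.78 and 0.89 with any array left out.

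The tyrosyl, methionyl, valyl and tryptophanyl pairs had differences of 0.71 ± 0.21, 0.63 ± 0.33, 0.55 ± 0.08 and 0.49 ± 0.12 (SE). The phenylalanyl pair of Farsa had 0.18 ± 0.06. Groups did not overlap in any of these 7 pairs, each at an exact two-sided p of 0.1, the smallest that 3 against 3 can give, and 0.171 after adjustment over the 12 pairs. No pair can therefore pass 0.05 by this exact test, whatever its size. The methionyl pair moved most with the array left out, between 0.33 without control replicate 2 and 0.89. In the asparaginyl pair both genes rose, Nars by 0.36 and Nars2 by 0.40, and the difference was -0.04 ± 0.12 (SE; exact p = 0.8). The histidyl, arginyl, threonyl and Farsb pairs had differences of 0.18, 0.00, -0.07 and -0.04, all with overlapping groups. Hars and Hars2 are neighbours in the RefSeq gene table and had their own transcripts on the array.

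**Figure D3:**
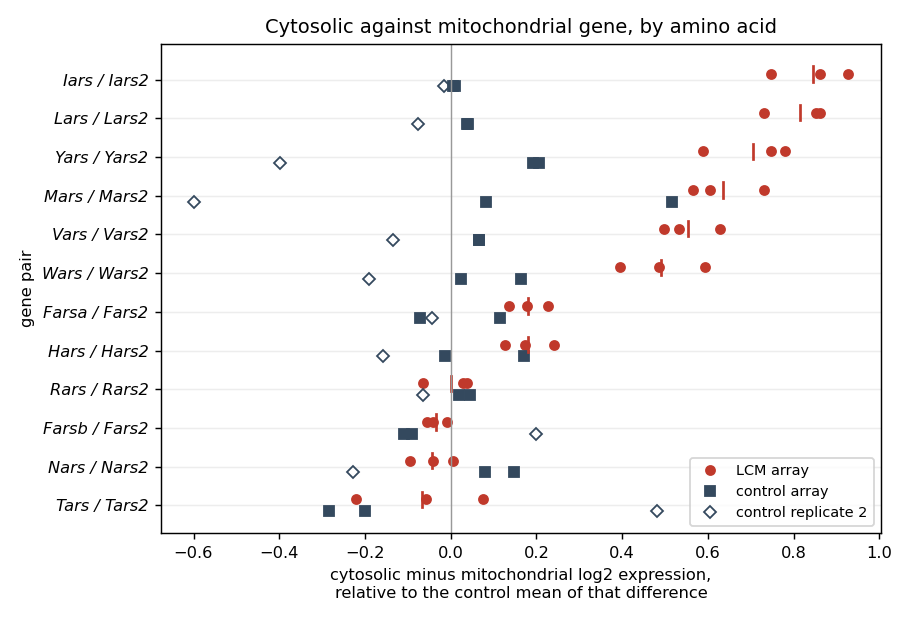
For each of the 12 pairs (y axis), the log2 expression of the cytosolic gene minus that of the mitochondrial gene in each array, relative to the control mean of that difference (x axis, log2 units). Red points are LCM arrays with their mean as a vertical tick, filled squares control arrays and open diamonds control replicate 2. In 7 pairs, from isoleucyl down to Farsa, the groups do not overlap.

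Within the cytosolic set, 2 of 6 measured genes of the multisynthetase complex (Iars and Lars) and 3 of 10 free enzymes (Cars, Nars and Wars) rose, with median log2 fold changes of 0.30 and 0.42, or 0.15 and 0.31 without control replicate 2. Of the 3 scaffold genes, 0 passed and 2 were higher at an unadjusted p under 0.05. Aimp1 had a log2 fold change of 0.40, Aimp2 of 0.20 and Eef1e1 of -0.24 (limma, adjusted p 0.195, 0.251 and 0.256), and these were 0.22, 0.17 and -0.14 without control replicate 2. By structural class, 4 of 9 cytosolic class I genes rose (Cars, Iars, Lars and Wars), with a median of 0.56, and 1 of 7 class II genes (Nars), with a median of 0.09. Without control replicate 2 these medians were 0.45 and 0.07. In the mitochondrial set 0 of 8 class I genes and 1 of 7 class II genes rose, with medians of -0.08 and 0.08, or -0.10 and -0.04 without control replicate 2. Gars and Kars each encode the enzyme of both compartments, and neither passed, at log2 fold changes of 0.49 and -0.01 (limma, adjusted p = 0.145 and 0.937). Qars was grouped with them, though a mitochondrial product of it is less certain, and the median of the 3 was 0.12, or 0.05 without control replicate 2. The differences between these subgroups were not tested.

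The genes that act beside the synthetases were described in the same way. Of the 4 genes of the mitochondrial amidotransferase, which completes glutaminyl-tRNA, and of the formylation of methionyl-tRNA, Qrsl1 fell and Gatb, Gatc and Mtfmt did not pass. Qrsl1, the amidotransferase's catalytic subunit, was at 7.68, 7.58 and 7.81 in the LCM arrays and at 8.27, 8.13 and 8.14 in the control arrays. Its log2 fold change was -0.49 ± 0.09 (SE; limma, adjusted p = 0.0275), and among the 6 fits with an array left out it passed only without control replicate 2 (adjusted p 0.0239, and up to 0.133 without another). None of the 8 mitochondrial translation factors passed by limma (1 lower and 0 higher at an unadjusted p under 0.05), with a median log2 fold change of -0.14. Of 68 mitochondrial ribosomal proteins 0 rose and 1 fell (5 higher and 11 lower at an unadjusted p under 0.05 by limma). Their median was -0.07, or -0.12 without control replicate 2. The gene that fell, Mrpl51, had a log2 fold change of -0.66 (limma, adjusted p = 0.0166).

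On the cytosolic side, ribosomal proteins were listed by symbol (Rpl or Rps followed by a digit), and 20 such genes were measured. They are only part of the ribosomal proteins, and include Rps19bp1, which is not one, and paralogs such as Rpl3l and Rpl39l. Of the 20, 1 rose (Rpl22, log2 fold change 0.49, adjusted p = 0.0346 by limma), 0 fell, and the median was 0.01. At an unadjusted p under 0.05 by limma, 3 were higher and 0 lower. With an array left out, Rpl22 passed only without control replicate 2 (0.0352), and Mrpl51 only without control replicate 2 or 3. None of the 3 measured elongation factors, 15 tRNA modification genes or 3 proofreading genes passed by limma, with medians of 0.15, 0.11 and -0.05, or 0.06, 0.07 and -0.10 without control replicate 2. At an unadjusted p under 0.05, 3 of the modification genes were higher and 1 lower, and 0 of the elongation factors and proofreading genes were either. The median of 0.41 over the cytosolic synthetases lay above that of each of these lists and below the 0.67 of the amino acid response markers, and the differences between lists were not tested.

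Of 10 measured amino acid response markers, 6 rose (Atf4, Ddit3, Trib3, Chac1, Sesn2 and Atf3) and 0 fell, against 2.29% and 1.97% of all genes. Atf4 was at 11.26, 11.20 and 11.29 in the LCM arrays and at 10.46, 10.36 and 10.60 in the control arrays, a rise of 0.78 ± 0.08 (SE; limma, adjusted p = 0.00732). It did not pass without LCM replicate 3 (adjusted p = 0.0513), and neither did Chac1, while Ddit3, Trib3 and Atf3 passed with each array left out and Sesn2 only without control replicate 2 or 3. Asns, asparagine synthetase, which makes the amino acid that Nars attaches, had a log2 fold change of 0.30 ± 0.08 (SE; limma, adjusted p = 0.0842). Psat1, Slc7a11 and Cebpb did not pass either, at 0.34, 0.27 and 0.03 (limma, adjusted p 0.0676, 0.254 and 0.93). Whether the synthetase changes depend on Atf4 was not tested.

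**Figure D4:**
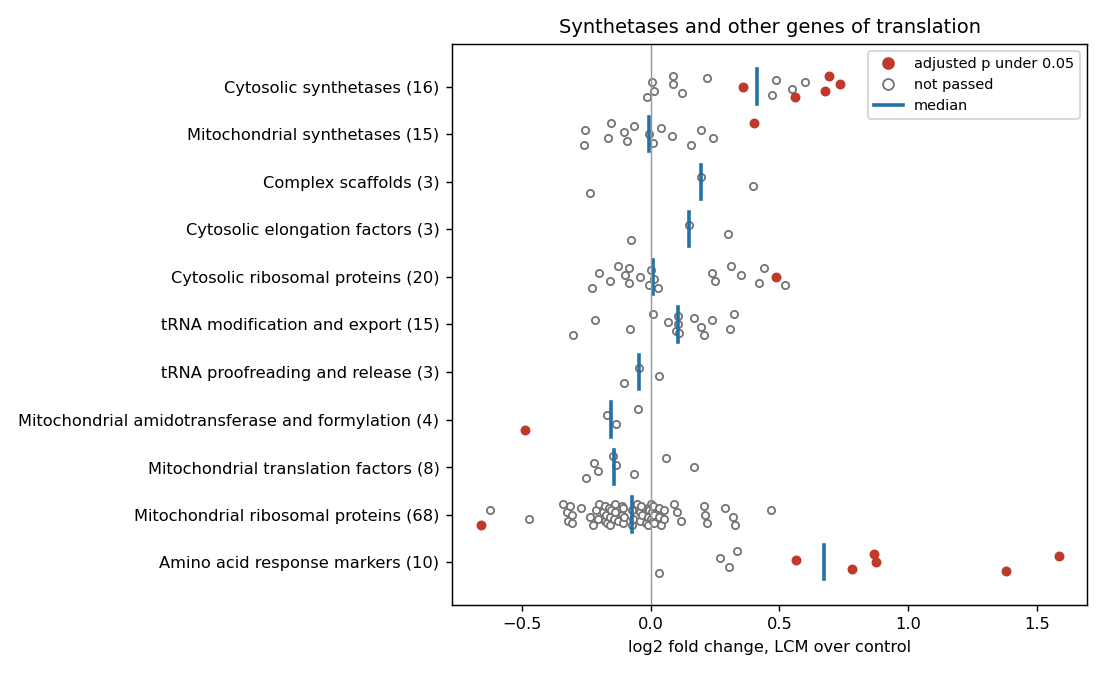
Log2 fold change, LCM over control (x axis), of each gene in the synthetase sets and in the other lists (y axis, number of measured genes in brackets). Filled red points passed at an adjusted p under 0.05 and the blue line is the median of a list. This median is 0.41 for the cytosolic synthetases and between -0.15 and 0.20 for the other lists of translation genes, and 0.67 for the amino acid response markers.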

How the data were processed

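The deposited values are log2 expression values, 1 column per array, that the authors made with RMA, a method that subtracts background, equalises the distributions of the arrays and combines a transcript's probes. No source used here gives the array version, the RMA settings or any filter. Of 23332 transcripts, 14996 had 1 gene symbol in the platform annotation, 1019 had several and 7317 had none listed. The identifiers of 14941 of the 14996 were found in RefSeq (GRCm38.p6). For 135 genes with over 1 transcript, the one with the highest mean was used, which left 14860 genes.

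LCM and control arrays were compared by a two-sided test without a block in limma 3.58.1 (lmFit, eBayes; R 4.3.3), with Benjamini-Hochberg adjustment over all genes. The array methods name no test. Paired t-tests are named for experiments in general and were run as an alternative, as was an unpaired t-test, which the methods do not name. Pair differences were tested with an exact permutation test over arrays. Same-numbered LCM and control arrays deviated from their group means with correlations of -0.23, 0.06 and 0.11, so the replicate numbers were not taken as pairs. Array medians were 7.665 to 7.68 in the LCM arrays and 7.595 to 7.658 in the control arrays, so all LCM medians were the higher. The number of arrays limits the precision. The limma and t-test p-values weigh each difference between groups against the spread between these cultures, in limma with information shared over all genes.

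Per-array values are given for synthetases past the threshold, for the 4 largest changes in each direction and set, and for both genes of a pair with a call. The members and lists were chosen with earlier results of these data known. One promoter sequence is not reported here. The limma step was tested on simulated data. Alternatives were other transcript choices, filters on dim genes, quantile normalization and median centring, array weights, a robust prior, a mean-variance trend, the block and each array left out. Other steps used Python 3.11.15, pandas 2.3.3 and matplotlib 3.10.9.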

Additional observations from a re-analysis of the deposited data

How the results depend on the processing

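With 1 array left out at a time, the number of cytosolic synthetases that rose was 2 to 6, of mitochondrial synthetases that rose 0 to 1, and of those that fell 0 to 1. The cytosolic median ranged from 0.27 to 0.47, the mitochondrial from -0.08 to 0.035, their difference (0.42 with all arrays) from 0.35 to 0.48, and the median pair difference from 0.25 to 0.41. Genes called over the whole table numbered 39 to 182 higher and 21 to 168 lower without any array but control replicate 2, and 680 and 652 without that one, against 341 and 292.

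The cytosolic count was 3 when all transcripts were tested, 2 with an unpaired t-test, and 0 with the paired t-test that the methods name. In the paired form 0 genes of the whole table passed after adjustment and 1761 had an unadjusted p under 0.05. The unpaired form called 104 genes higher and 66 lower. The mitochondrial count of 1 was 0 when all transcripts were tested, with quantile normalization applied again, with centring on the median, with the replicate number as a block and with either t-test. Under the replicate block the cytosolic count was 4, with 173 genes higher and 151 lower over the whole table. Centring gave 232 higher and 408 lower, a cytosolic count of 4, a cytosolic median of 0.364 and a mitochondrial median of -0.056. Quantile normalization gave 300 and 348, and a cytosolic count of 4.

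Array weights, which gave control replicate 2 a weight of 0.197, called 889 genes higher and 975 lower. Among them were 7 cytosolic synthetases that rose, and 2 mitochondrial ones that rose and 2 that fell (Sars2 and Lars2). The cytosolic median was then 0.30, the mitochondrial median -0.068 and the difference 0.37. With a mean-variance trend the cytosolic count was 6 (394 genes higher and 337 lower). It was also 6 among genes over the 25th percentile of the mean (438 higher and 394 lower of 11145) and over the 50th (495 and 396 of 7430). With Mars left out of the cytosolic set the difference was 0.36, and without Gars, Kars and Qars it was 0.48. Both were chosen after seeing the data. The share of cytosolic promoters with a CARE match was 30.8% with the stricter core and 38.5% otherwise. The log2 fold change of Kars was 0.009 without control replicate 1 and -0.033 without control replicate 3. That of Tars2 was -0.009 with array weights, -0.041 without control replicate 2 and 0.257 without control replicate 3. Over the 15 synthetases with per-array values, the alternatives left direction and call as they were in 220 comparisons, lost a call in 36, gained one in 10 and turned the direction in these 3. Only genes with a call could lose one. Out of 18 alternatives each, Nars and Nars2 lost it in 11, Lars in 8, Wars in 4, and Cars and Iars in 1. The causes were not tested, other than that fewer arrays or more transcripts entered some of these fits.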
